A study of Mus musculus with 51 samples.

Results

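The 9 genes described here, *Esrrb*, *Klf2*, *Klf4*, *Klf5*, *Zfp42*, *Tfcp2l1*, *Nr0b1*, *Nr5a2* and *Tcl1*, belong to the naive pluripotency network of mouse embryonic stem cells (mESCs). They were chosen by symbol, and each occurs once among the 24538 genes of every deposited RNA-seq table. The tables follow mESCs differentiated towards cardiac mesoderm (ME) with Bmp4 at 20 ng/ml, from cell aggregates taken before Bmp4 was added (the ES stage) to day 3. F1G4 WT cells were sequenced at the ES stage and on days 1, 2 and 3, with 2 samples per stage. *Eomes* KO, *T* KO and *Eomes*/*T* double KO (dKO) cells, all derived from F1G4 cells, were sequenced on days 2 and 3. Cells lacking *Smad4*, and the parental WT cells carrying the conditional *Smad4* allele from which they were made, both on a 129S/SvEvxC57BL/6 background, were sequenced on days 1 and 2. For each of these KO conditions and for the WT cells of the *Smad4* line the labels give 1 sample, although legends of the study describe its RNA-seq values as means of replicates. The KO lines are single clones. Cas9 nickase deletions around the promoter and first exon made the *Eomes* and *T* alleles, the dKO was built on *Eomes* KO cells, and Cre removed the first exon of *Smad4*. Before differentiation the mESCs were kept with LIF on feeder fibroblasts, which were removed, and the differentiation medium lists no LIF.

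Naive mESCs resemble the epiblast of the blastocyst before implantation. Their self-renewal is held by transcription factors that act on overlapping targets, and LIF, acting through the receptor subunits Lifr and gp130 and through Stat3, sustains several of them. When cells leave this state they shut these factors down, pass through a formative and then a primed state in which the general pluripotency factor *Pou5f1* is still expressed, and become competent to form the germ layers.

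The deposited values are FPKM (fragments per kilobase of transcript, scaled to the mapped fragments of the library), with 1 value per gene and condition, so no spread between replicates and no test can be given. A gene was examined where FPKM was above 1 in either column compared, and called higher or lower where the log2 ratio was above 1 or below -1, which is the study's rule. Rose and fell below refer to such calls. Depth could be read from the values. Multiplied by transcript length, 92.7 to 93.9% of the low values (below 20 fragments) of the KO columns and of the *Smad4* line columns were whole multiples, within 0.05, of a single step, as 1 library per column gives. The step corresponded to normalised library sizes of 18098065 to 37417148 fragments over these 10 columns. The 4 F1G4 WT columns showed a pair of interleaved steps, as a mean of 2 libraries gives, of 21808626 to 29032106 fragments each. Numbers of fragments given below come from these steps, and their 95% exact Poisson intervals cover counting error only. Those of *Klf5*, *Nr0b1*, *Nr5a2*, *Tcl1* and *Esrrb* are approximate because their values were not exactly whole.

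As a yardstick for differences between unmodified cells, WT cells of the *Smad4* line were compared with F1G4 WT cells, across tables that were normalised separately. On day 2 the robust SD of the log2 ratio was 0.86 for genes whose higher FPKM was 0.3 to 1, 0.54 at 1 to 3, 0.39 at 3 to 10, 0.30 at 10 to 30 and 0.24 above 30. On day 1 it was 1.14, 0.77, 0.55, 0.50 and 0.45 at the same levels. These figures also hold the difference between the lines.

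The upstream sequences of the members were read from RefSeq (GRCm38.p6, the same build as mm10), as the 250 bases before each annotated start. Of the 9 genes, 8 matched, with 10 starts in all, as *Esrrb* and *Nr5a2* have 2 each. *Klf5* had no entry. Shown are *Zfp42*, the most abundant member at the ES stage, *Nr0b1*, the member that fell furthest, and *Tfcp2l1*, whose upstream sequence shares the TATAAA letters with that of *Nr0b1*. Capitals mark the octamer ATGCAAAT, here in its reverse complement, and the letters TATAAA.
Zfp42, minus strand of chr8:43307010-43307259: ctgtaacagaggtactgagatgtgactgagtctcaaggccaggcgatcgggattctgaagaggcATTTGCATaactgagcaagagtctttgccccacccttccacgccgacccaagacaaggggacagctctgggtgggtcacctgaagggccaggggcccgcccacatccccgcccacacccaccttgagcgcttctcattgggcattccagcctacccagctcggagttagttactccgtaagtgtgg
Nr0b1, plus strand of chrX:86191525-86191774: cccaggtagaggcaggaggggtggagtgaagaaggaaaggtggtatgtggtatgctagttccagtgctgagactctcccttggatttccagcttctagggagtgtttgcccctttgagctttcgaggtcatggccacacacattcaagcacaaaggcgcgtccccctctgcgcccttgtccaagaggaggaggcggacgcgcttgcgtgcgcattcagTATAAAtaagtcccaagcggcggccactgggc
Tfcp2l1, plus strand of chr1:118627695-118627944: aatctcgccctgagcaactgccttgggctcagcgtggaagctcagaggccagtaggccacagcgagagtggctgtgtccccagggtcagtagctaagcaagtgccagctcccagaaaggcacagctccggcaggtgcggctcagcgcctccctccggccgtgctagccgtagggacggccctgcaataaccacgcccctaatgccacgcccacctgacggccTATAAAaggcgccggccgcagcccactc
The octamer, the letters read by Pou5f1, was found on either strand in 1.60% of all 32851 upstream sequences of this length, and among the members in that of *Zfp42* alone, 186 bases before the start. TATAAA stood in 12.4% of all and in 3 of the 10 member sequences, 32 bases before the start of *Nr0b1*, 28 before that of *Tfcp2l1* and, in reverse, 181 before a start of *Nr5a2*. For *Tfcp2l1* the 28 bases count from the end of its window at 118627944. That end lies past 118627923, where the gene position given below begins. The KLF-type letters GGGNGTG stood in 26.1% of all and in 5 of the 10 (*Esrrb*, *Nr0b1*, *Nr5a2*, *Tfcp2l1* and *Zfp42*), and the T-box letters AGGTGTG in 5.10% of all and in that of *Tcl1*. The STAT-type letters TTCCNGGAA (0.913% of all) and AAGGTCA, the letters read by Esrrb and Nr5a2 (4.08% of all), were in none of the 10. A match is only a match of letters in this window. By G and C content the members ranged from 43.2% for a start of *Nr5a2* to 74.0% for *Klf4*, with 71.2% for *Klf2*, against a median of 52.4% over all.

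In F1G4 WT cells all 9 genes were expressed at the ES stage and fell steeply within the first day. Of the examined genes 5.84% were called lower and 7.70% higher from the ES stage to day 1, and 9 of the 9 members were called lower, with a median log2 ratio of -3.42 against -0.06 over all examined genes. The summed FPKM of the members went from 571 at the ES stage to 76.2, 37.4 and 29.3 on days 1, 2 and 3. Fewer cells in the naive state and less RNA per cell cannot be told apart in these bulk samples.

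*Zfp42* (Rex1, a zinc finger gene and common marker of the naive state, at 8:43295067-43307009) stood at FPKM 305 at the ES stage and at 46.0, 19.9 and 12.0 on days 1, 2 and 3. It ranked 278th of all genes at the ES stage and was the most abundant member at every stage. *Esrrb* (an orphan nuclear receptor that sustains self-renewal, at 12:86361117-86521628) stood at 70.2, 5.22, 2.02 and 1.45 over the same stages. Both genes were called lower again from day 1 to day 2. From day 2 to day 3 their log2 ratios, -0.73 for *Zfp42* and -0.48 for *Esrrb*, were not called. On day 3 *Zfp42* was left with 3.94% and *Esrrb* with 2.06% of the ES value.

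*Nr0b1* (Dax1, a repressor of nuclear receptors on the X chromosome, at X:86191775-86195947) stood at 60.3, 5.04, 0.297 and 0.173. With a log2 ratio of -8.45 from the ES stage to day 3, or 349-fold, it fell further than any other member, and on day 3 its value rested on about 16.4 to 18.0 fragments over the libraries. *Nr5a2* (Lrh1, a nuclear receptor that can drive *Pou5f1*, at 1:136842562-136960448) stood at 20.2, 2.40, 0.454 and 0.402. *Tcl1* (a cofactor of Akt kinases, at 12:105216753-105222737) stood at 14.2, 1.31, 0.280 and 0.255. These 3 genes fell in 2 steps, on day 1 and on day 2, and on day 3 were at 0.286%, 1.99% and 1.79% of the ES value.

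The Klf genes and *Tfcp2l1* were called lower from the ES stage to day 1 and not called between later days. *Klf4* (a zinc finger factor of the reprogramming set, at 4:55527137-55532475) stood at 14.2, 0.396, 0.580 and 0.859. *Klf2* (a Klf factor of the ground state, at 8:72319062-72321654) stood at 16.4, 1.53, 0.803 and 1.31. *Tfcp2l1* (a grainyhead-like factor and mediator of LIF and Stat3 signalling, at 1:118627923-118685168) stood at 28.2, 2.9, 1.89 and 2.56. *Klf4* had its lowest value on day 1 and *Klf2* and *Tfcp2l1* on day 2, and all 3 stood higher on day 3 than on day 2, by log2 ratios of 0.57, 0.70 and 0.43 that were not called. By fragments, *Klf4* went from about 56.3 to 62.1 on day 1 to about 138 to 152 on day 3.

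*Klf5* (a Klf factor also used by trophectoderm and by many epithelia, at 14:99298691-99313412) was the member that held on. It stood at 42.0 at the ES stage and at 11.4, 11.2 and 10.2 on days 1, 2 and 3, a fall of 3.68-fold on day 1 and log2 ratios of -0.03 and -0.12 after that. On day 3 it kept 24.4% of its ES value, against a median of 3.94% over the 9 members. With *Zfp42* it was the only member above FPKM 5 on days 2 and 3.

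**Figure D1:**
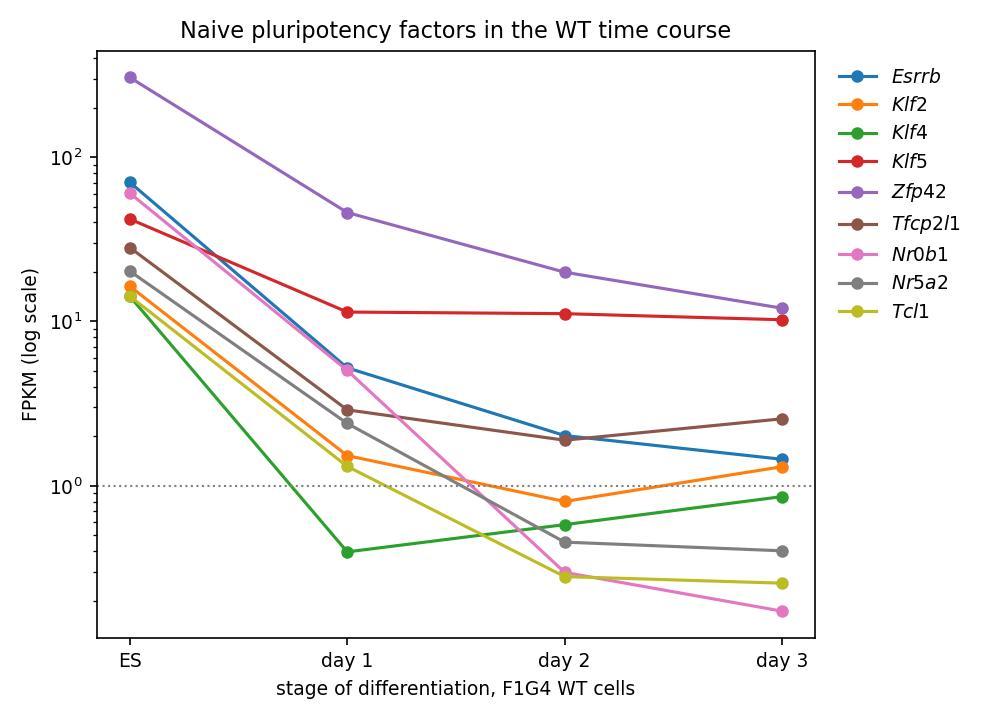
FPKM of the 9 genes (log axis) at the ES stage and on days 1, 2 and 3 in F1G4 WT cells, 1 deposited value per point, with FPKM 1 dotted. All lines drop from the ES stage to day 1, *Nr0b1* falls furthest (60.3 to 0.173) and *Klf5* stays between 10.2 and 11.4 from day 1 on.

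From day 1 to day 2, 5 of the 9 members were called lower (*Esrrb*, *Zfp42*, *Nr0b1*, *Nr5a2* and *Tcl1*), with 4.13% of examined genes called lower and 7.17% higher. The largest ratio was that of *Nr0b1* at -4.08. From day 2 to day 3 none of the 9 was called, with 4.06% of examined genes called lower and 6.14% higher, and 5 of the 9 were examined at all. Relative to the ES stage 9 of 9 were called lower on day 2 (9.08% of examined genes lower, 14.2% higher) and on day 3 (12.6% lower, 18.5% higher). The median log2 ratio of the members to the ES stage was -4.62 on day 2 and -4.67 on day 3.

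Other naive-state genes fell as well, by less in the median but not in each gene. Of 9 such genes 7 were called lower on day 1 and 8 on day 3, with medians of -1.91 and -3.51 (log2 ratio to the ES stage with a pseudocount of 0.1, as for all list medians), and on that scale the medians of the 9 members were -3.34 and -4.65. *Dppa5a* stood at 1141, 477, 277 and 100.1 over the 4 stages, *Dppa3* at 218, 80.3, 34.6 and 16.0, and *Fbxo15* at 166, 26.2, 10.1 and 9.08. *Dppa3* is also a germ cell gene. *Prdm14*, *Gbx2* and *Tet2*, named after their values were seen, were at 1.44%, 5.49% and 6.61% of their ES values on day 1, below the median of 9.33% over the 9 members. Of 7 LIF and Stat3 pathway genes 5 were called lower on day 1 (median -1.45) and 3 on day 3 (median -0.59). *Socs3*, a feedback inhibitor and target of Stat3, stood at 29.4, 0.805, 2.40 and 5.64, and *Lifr* at 26.2, 8.32, 2.27 and 5.25. *Il6st*, which encodes gp130, stood at 19.5, 7.35, 9.61 and 16.1. The low point of *Socs3* and *Il6st* on day 1 and their higher values on day 3 have the same order as those of *Klf4*, while *Lifr* was lowest on day 2. This is a description of 4 points, and the later increase of *Klf4* was not called.

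General pluripotency factors fell less than the 9 genes by the median, and unevenly. Of 7 such factors 2 were called lower on day 1 (median -0.41) and 5 on day 3 (median -1.45). *Pou5f1*, which encodes Oct4, stood at 1002, 755, 740 and 465, *Sox2* at 256, 104, 21.5 and 20.4, and *Lin28a* at 171, 281, 214 and 190.2. *Dppa4* (170 to 10.9 from the ES stage to day 3) and *Utf1* (31.1 to 4.15), named after their values were seen, fell along with *Sox2*. *Nanog*, chosen after its values were seen, stood at 148, 16.1, 120.5 and 119, so it was low on day 1 and back near its ES value on days 2 and 3, which none of the 9 members was. Of 9 formative and primed genes 6 were called higher on day 1 and 1 lower (median 1.06). *Dnmt3b*, a DNA methyltransferase of the formative state, stood at 218, 455, 148 and 91.2, *Otx2* at 27.0, 54.1, 19.3 and 11.5, and *Dnmt3a* at 30.6, 53.1, 14.3 and 11.5. On day 3, 2 of these 9 were called higher and 4 lower. Of 7 genes that promote exit from the naive state 1 was called lower on day 1 and 2 on day 3, and *Etv5* stood at 63.1, 45.5, 28.6 and 18.1. *Zfp281* went from 53.0 to 29.2 from the ES stage to day 3. Of 7 nascent mesoderm genes 7 were called higher on day 3 (median 5.79), among them *T* (0.0784 to 320), *Fgf8* (0.0172 to 55.3) and *Wnt3* (0.0794 to 25.0).

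**Figure D2:**
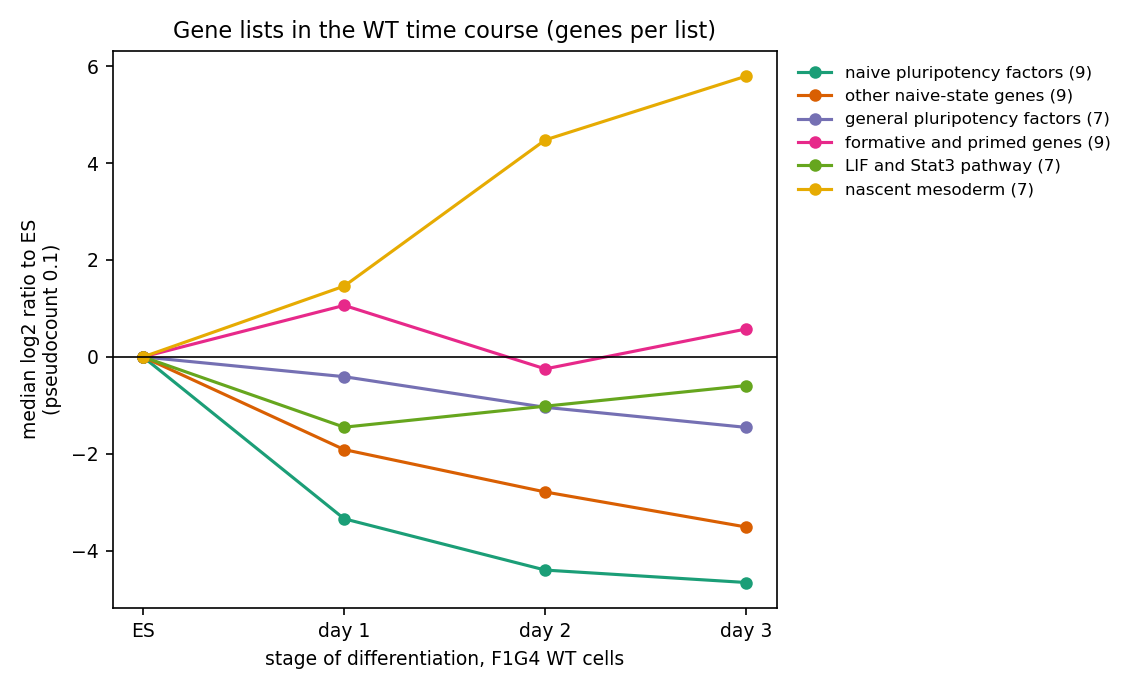
Median log2 ratio to the ES stage (pseudocount 0.1) of 6 gene lists in F1G4 WT cells, with the number of genes of each list in the key. The line of the 9 naive factors is the lowest on each day (-3.34 on day 1, -4.65 on day 3), formative and primed genes peak on day 1 (1.06) and nascent mesoderm genes reach 5.79 on day 3.

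Relatives of the members were followed in the same columns. Of the 17 Klf genes 14 were examined from the ES stage to day 1 and 4 were called lower, *Klf2*, *Klf4*, *Klf5* and *Klf3* (8.22 to 3.89, named after its values were seen). *Klf6* stood at 30.2, 52.4, 95.4 and 100.4, *Klf10* at 35.8, 18.5, 21.6 and 44.3, and *Klf9* at 53.6, 28.7, 18.4 and 15.0. *Klf6* was therefore the Klf gene with the highest FPKM on days 1, 2 and 3, where *Klf9* had been at the ES stage. Of 12 relatives of the other members 4 were examined and none was called between any of the stages, among them *Yy1*, the ancestral relative of *Zfp42* (60.8 to 55.9 from the ES stage to day 3), *Ubp1*, a relative of *Tfcp2l1* (37.2 to 28.1), and *Esrra*, a relative of *Esrrb* (4.27 to 5.08).

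Markers of other cells bear on whether the columns held something else than differentiating mESCs, but the lists are not exclusive to those cells. The study counts *Gata4*, here in the primitive endoderm list, and *Kdr*, here in the endothelial list, among lateral mesoderm and cardiac progenitor genes. Sums of these lists therefore do not separate such cells from mesoderm. Of 9 feeder fibroblast genes 1 was above FPKM 1 on day 1, *Thy1* at 2.97, and their summed FPKM was 1.4 at the ES stage and 3.73, 3.34 and 3.33 afterwards. The 6 genes of the 2-cell-like state summed to 0.200 at the ES stage and were all listed at 0 on days 1 and 3. The 6 primitive endoderm genes summed to 0.605 at the ES stage and 4.33 on day 3 (*Pdgfra* 1.80), and the 5 endothelial genes to 2.28 and 0.628, with *Tek* at 2.08 at the ES stage and *Emcn* at 0 at all stages. The 6 trophoblast genes summed to 18.1 and 16.4, of which *Tfap2c*, which germ cells also use, was 17.0 at the ES stage and *Cdx2* 7.30 on day 3, with *Tpbpa* at 0. The 5 germ cell precursor genes, *Dppa3* included, summed to 345, 122, 76.9 and 95.8, so they were lower on each later day than at the ES stage, as the members were, though higher on day 3 than on day 2, and their part in the result was not tested. Of the 5, *Dnd1* was called higher from the ES stage to day 3 (6.11 to 15.8). *Ifitm3* was the most abundant of them on day 3 at 63.0.

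The members were also compared between the WT lines. On day 1, 1 member was called higher in the *Smad4* line (*Klf2*, 3.85 against 1.53) and 1 lower (*Nr0b1*, 1.32 against 5.04), where 6.58% of examined genes were called higher and 4.27% lower (60.6% of all calls were higher, and 49.2% after scaling to the same sum). On day 2 none of the 9 was called, of which 4 were examined against 8 on day 1, with 1.53% of examined genes higher and 3.62% lower. *Klf5* stood at 21.3 on day 1 in the *Smad4* line and at 11.4 in F1G4 cells, and at 9.30 and 11.2 on day 2.

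Smad4 is the partner through which both BMP-activated Smad1/5 and Nodal-activated Smad2 act on chromatin, and cells without it were compared with WT cells of their line. The factors called in *Smad4* KO cells were all lower than in WT. On day 1, 2 of the 9 were called lower and none higher, where 2.41% of examined genes were called lower and 2.36% higher. On day 2, 4 of the 9 were called lower and none higher, against 3.21% and 2.56% of examined genes, and these 4 were all of the members examined. *Esrrb* and *Tfcp2l1* on day 2, and *Nr5a2* on day 1, were examined through their WT value alone, so that only a lower call was possible for them. With a pseudocount of 1, or with an FPKM minimum of 5, 0 members were called on day 1 and 2 on day 2. The median log2 ratio of the 9 was -0.43 on day 1 and -1.22 on day 2, where that of all examined genes was -0.0043 and -0.0096.

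*Zfp42* stood at 47.6 in WT against 36.8 in *Smad4* KO cells on day 1, and at 14.0 against 5.38 on day 2. The day 2 values rested on 891 and 335 fragments, and the log2 ratio was -1.38 with a counting interval of -1.57 to -1.20. *Klf5* stood at 21.3 and 12.8 on day 1 and at 9.30 and 3.99 on day 2, a log2 ratio of -1.22 (counting interval -1.45 to -1.0). Both day 2 differences were larger than the robust SD between the WT lines at their level (0.30 and 0.39). *Esrrb* stood at 2.9 and 1.64 on day 1 and at 1.11 and 0.276 on day 2, with about 168 and 41 fragments on day 2 and a log2 ratio of -2.01 (counting interval -2.54 to -1.51). *Tfcp2l1* stood at 3.53 and 2.62 on day 1 and at 1.83 and 0.884 on day 2, a log2 ratio of -1.05 (counting interval -1.26 to -0.85), just past the threshold, where the robust SD between the WT lines was 0.54.

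*Nr5a2* and *Klf2* were the members called on day 1. *Nr5a2* stood at 2.79 in WT against 0.944 in the KO on day 1, a log2 ratio of -1.56 (counting interval -1.94 to -1.20), and at 0.695 and 0.0787 on day 2. *Klf2* stood at 3.85 and 1.71 on day 1, a log2 ratio of -1.17 (counting interval -1.59 to -0.77), and at 0.563 and 0.0797 on day 2. On day 2 both were below FPKM 1 in WT cells and so were not examined, but their ratios were the lowest of the 9. *Nr5a2* had a ratio of -3.14 from about 91 and 10 fragments and *Klf2* -2.82 from 36 and 5 fragments, and the counting intervals ran from -4.27 to -2.21 and from -4.53 to -1.47.

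The other 3 members were not called on either day, and on day 2 none of them was examined. On day 1 the log2 ratio of *Klf4*, which was not examined, was -0.43, the same as that of *Tfcp2l1* (-0.43). *Nr0b1* stood at 1.32 in WT against 1.49 in the KO on day 1, and at 0.30 against 0.274 on day 2, with 19 and 17 fragments on day 2. *Tcl1* stood at 2.08 and 2.84 on day 1 and at 0.265 and 0.308 on day 2. *Klf4* stood at 0.501 and 0.371 on day 1 and at 0.205 and 0.295 on day 2. Of their 6 log2 ratios 5 had a counting interval that included 0, and that of *Tcl1* on day 1 was 0.45 (0.03 to 0.88), within the robust SD of 0.77 between the WT lines. At this depth a difference in *Nr0b1* on day 2 of up to the bounds of its interval, -1.17 and 0.89, could not be seen.

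**Figure D3:**
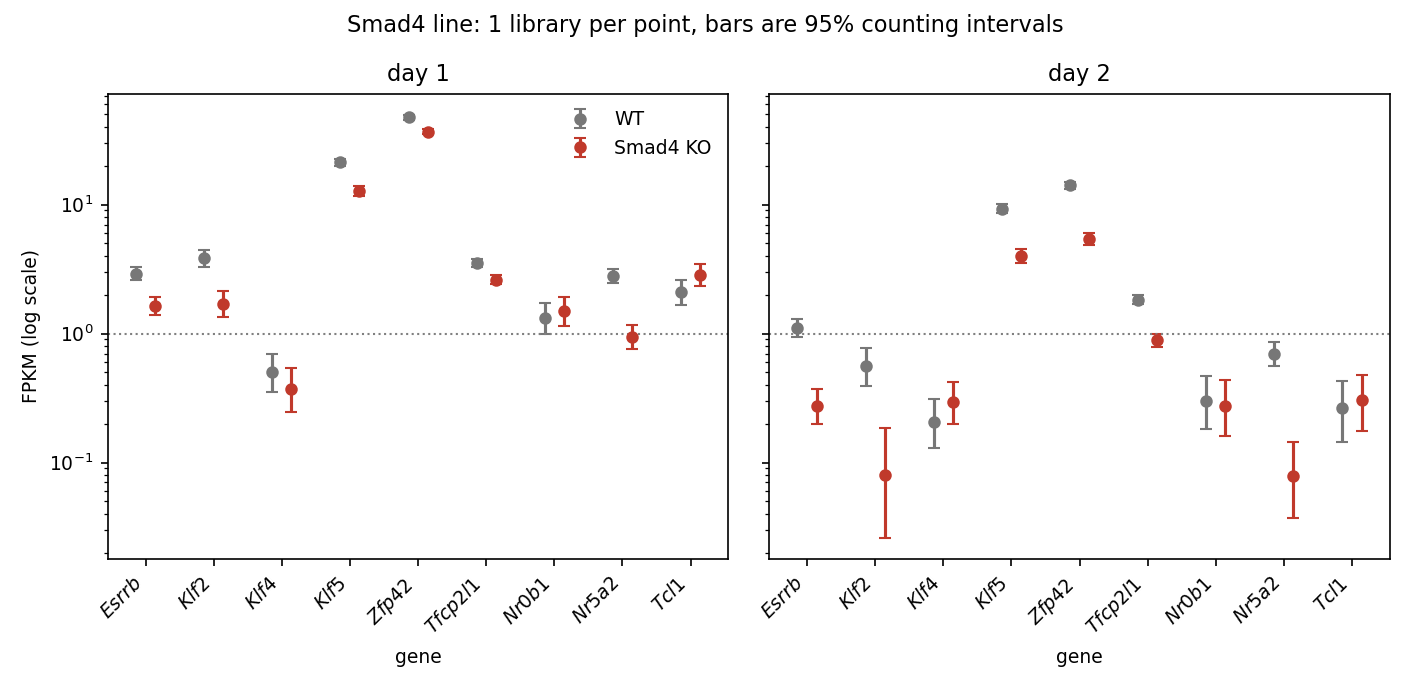
FPKM (log axis) of the 9 genes in WT (grey) and *Smad4* KO cells (red) on day 1 and day 2, 1 library per point, with 95% exact Poisson intervals that cover counting error only and FPKM 1 dotted. On day 2 the KO points of *Esrrb*, *Klf2*, *Klf5*, *Zfp42*, *Tfcp2l1* and *Nr5a2* lie below the WT intervals, and those of *Klf4*, *Nr0b1* and *Tcl1* overlap them.

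Other markers moved in the same *Smad4* KO columns, and their part in the result was not tested. Of the 9 other naive-state genes 2 were called lower and 1 higher on day 1 and 4 lower on day 2. With WT given first, the day 2 values were 147 and 21.4 for *Dppa5a*, 65.7 and 9.87 for *Dppa3*, and 7.19 and 6.18 for *Fbxo15*. *Tbx3*, named after its values were seen, was called lower on day 1 (2.19 and 0.307) and on day 2 (1.88 and 0.106). The study lists *Tbx3* with mesoderm control genes that Smads activate. These counts therefore do not separate naive-state genes from mesoderm genes. The 5 germ cell precursor genes summed to 109 and 24.2 on day 2, 2 of them were called lower and *Nanos3* was listed at 0 in KO cells. On day 1 these genes summed to 257 and 156, with none called. Of 7 general pluripotency factors 1 was called higher on day 2, *Sox2* (35.2 in WT, 120 in KO), and 1 lower, *Nanog* (121 and 26.8), while *Pou5f1* stood at 692 and 642. Of 9 formative and primed genes 5 were called higher on day 1 and 3 on day 2, with *Otx2* at 15.3 and 54.2 on day 2. The 4 neural progenitor genes summed on day 2 to 30.8 in WT against 72.4 in KO cells, with 2 called higher. *Pax6* stood at 0.378 and 10.4 and *Sox1* at 0.302 and 3.58, with *Nes* the most abundant at 30.0 and 58.1. On day 1 the list summed to 15.0 and 30.4, with *Pax6* (1.02 and 5.65) and *Sox1* (0.136 and 1.62) called higher. The nascent mesoderm genes summed on day 1 to 14.4 and 3.20, with 3 called lower. On day 2 they summed to 90.3 and 4.09, with 6 of 7 called lower. The 6 trophoblast genes summed on day 1 to 17.3 in WT against 7.17 in the KO, with 3 called lower, and on day 2 to 6.89 against 1.73, with 1 called lower, *Tfap2c* (4.47 and 0.854). *Elf5* was listed at 0 in these columns. Of the 7 LIF and Stat3 pathway genes 1 was called lower on day 2. The 9 feeder fibroblast genes summed on day 2 to 2.76 in WT against 5.79 in the KO, with 1 called higher. On day 1 they summed to 4.59 and 3.80, with none called. The 5 endothelial genes summed on day 2 to 0.461 and 1.19, with *Tek* called higher (0.368 and 1.10), and on day 1 to 1.69 and 1.34.

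The day 1 WT column of the *Smad4* line itself stood apart from F1G4 WT cells, so the day 1 ratios rest on it. *Klf2*, called lower in the KO on day 1 at 1.71, was 3.85 in this WT column and 1.53 in F1G4 WT cells, whereas *Nr5a2*, at 0.944 in the KO, was 2.79 and 2.40. Against F1G4 WT cells 5 of the 9 formative and primed genes were called lower in the WT column, and the list summed to 312 there, 505 in the KO and 623 in F1G4 WT cells. The trophoblast genes summed to 17.3, 7.17 and 5.47 in the same order, and the germ cell precursor genes to 257, 156 and 122. *Nanog* stood at 65.2, 18.1 and 16.1. Differences between the lines and between their tables cannot be told apart.

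*Smad4* itself could not be used to check the KO label, because only its first exon was removed. Its FPKM was 33.8 in WT against 39.4 in the KO on day 1, and 39.3 against 46.8 on day 2. *Eomes* stood at 24.8 in WT and 1.73 in *Smad4* KO cells on day 2, and *T* at 26.6 and 0.891.

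*Eomes* and *T* encode the T-box factors of nascent mesoderm, and their KO lines were compared with F1G4 WT cells on days 2 and 3. The 3 comparisons of a day share their WT columns, so they are not independent, and their values are given side by side. WT levels below are those of the time course, while each ratio uses the WT column of its own table, which was 0.989 to 1.04 times the former. *Eomes* stood at 9.50 in WT against 2.42 in *Eomes* KO cells on day 2, and at 19.4 against 0.276 on day 3. *T* stood at 43.5 in WT against 6.64 in *T* KO cells on day 2, and at 320 against 3.00 on day 3. In the dKO, *Eomes* was 1.24 and 0.346 and *T* 2.77 and 1.93 on days 2 and 3. Both targeted genes were thus below WT under their labels. In *T* KO cells on day 2, *T* at 6.64 was still above its F1G4 WT value of 0.778 on day 1. *Eomes* stood at 24.7 in *T* KO cells on day 2 and was called higher (log2 ratio 1.33). On day 3 it stood at 4.83 there and was called lower (-2.02). The study describes *Eomes* and *T* as raising each other's expression on both days.

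Between 0 and 3 of the 9 factors were called in each comparison. In the *Eomes* KO none of the 9 was called on day 2 (3.35% of examined genes called higher, 4.17% lower) and 1 was called lower on day 3 (7.39% higher, 9.01% lower). In the *T* KO, 3 were called higher and none lower on day 2 (5.70% higher, 9.93% lower) and 1 was called higher on day 3 (2.12% higher, 3.92% lower). *Nr0b1* and *Nr5a2* on day 2 were examined through their *T* KO value alone, so that only a higher call was possible, and the same holds for *Nr0b1* in the dKO. With a pseudocount of 1 or an FPKM minimum of 5 the number called higher was 0 in the *T* KO on both days and in the dKO on day 2. In the dKO, 1 was called higher on day 2 (3.48% higher, 4.50% lower) and none on day 3 (5.51% higher, 5.53% lower). Scaling the columns to the same sum moved the share of all calls that were higher from 44.5 to 26.2% and from 45.0 to 70.3% in the *Eomes* KO on days 2 and 3, from 36.5 to 48.3% in the *T* KO on day 2 and from 43.6 to 11.8% in the dKO on day 2, where 3 members were then called lower (*Esrrb*, *Klf5* and *Tfcp2l1*). Between 4 and 7 of the 9 members were examined in each, since the others were below FPKM 1 in both columns. The median log2 ratio of the 9 was -0.46 and 0.26 in the *Eomes* KO, 0.96 and 0.32 in the *T* KO and -0.81 and 0.09 in the dKO on days 2 and 3.

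*Klf5* was lower than WT in each KO column. On day 2 it stood at 11.2 in WT cells, 7.00 in *Eomes* KO, 7.34 in *T* KO and 5.73 in dKO cells, with log2 ratios of -0.65, -0.64 and -0.94. On day 3 it stood at 10.2 in WT cells, 4.35 in *Eomes* KO, 5.89 in *T* KO and 8.74 in dKO cells, with log2 ratios of -1.30, -0.81 and -0.28. As deposited, only the ratio of the *Eomes* KO on day 3 passed the threshold, from about 183 fragments in the KO library, while with columns scaled to the same sum that of the dKO on day 2 also did, at -1.35, and the dKO on day 3 was closest to WT. In the *Eomes* KO on day 3 that scaling raised the median log2 ratio of all examined genes from -0.04 to 0.24. It thereby brought the *Klf5* ratio of -1.30 nearer to the threshold. The day 2 ratios compare with a robust SD of 0.39 between the WT lines at FPKM 3 to 10, or 0.30 at 10 to 30, and for day 3 the second WT line was not sequenced.

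*Nr0b1*, which had all but gone from WT cells by day 2, was detected at higher values in the KO columns. On day 2 it stood at 0.297 in WT cells, 0.806 in *Eomes* KO, 1.57 in *T* KO and 1.04 in dKO cells, with log2 ratios of 1.45, 2.34 and 1.82. On day 3 it stood at 0.173, 0.433, 0.551 and 0.660, with ratios of 1.28, 1.66 and 1.89. The *T* KO and dKO on day 2 were called, and the others were below FPKM 1. By fragments the KO values were 41, 51 and 48 on day 2 and 19, 37 and 24 on day 3, against about 26.6 to 29.5 and 16.4 to 18.0 over the 2 WT libraries together. Even the highest of these, 1.57, was 2.60% of the ES value.

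In *T* KO cells on day 2 further members had higher values. *Esrrb* was 2.02 in WT cells and 4.86 in *T* KO cells (log2 ratio 1.21), beside 1.47 in *Eomes* KO and 1.14 in dKO cells. *Nr5a2* was 0.454 in WT cells and 1.66 in *T* KO cells (1.82), beside 0.515 and 0.569. *Tcl1* was 0.280 in WT cells and 0.880 in *T* KO cells (1.60, not examined), beside 0.202 and 0.0958, and *Klf2* 0.803 and 1.61 (0.96, or 1.08 with columns scaled to the same sum), beside 0.408 and 0.279. On day 3 in *T* KO cells *Esrrb* stood at 1.54 (log2 ratio 0.08) and *Tcl1* at 0.334 (0.37), while *Nr5a2* at 0.206 had a negative ratio (-0.98). These were not called. The *T* KO column of day 2 had, as deposited, the highest share of examined genes called lower among the 8 KO comparisons. With columns scaled to the same sum it had 929 genes called lower, and the dKO on day 2 had 1515. The *T* KO column of day 2 also had the smallest normalised library (18098065 fragments). In the same column 3 of the 9 other naive-state genes were called higher, among them *Fgf4* (23.4, WT 11.2) and *Tet2* (5.05, WT 1.68), which were chosen after their values were seen and stood at 22.2 and 4.79 in *Eomes* KO cells and at 15.6 and 3.29 in dKO cells. *Sox2*, at 55.2 (WT 21.5), was the general pluripotency factor called higher there, *Socs3* at 5.80 (WT 2.40) the LIF and Stat3 pathway gene called higher, and *Pou5f1* was 549 (WT 740) without a call. The immediate early genes summed to 39.4 with 6 of 9 called lower. The part of these in the result was not tested.

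*Klf2* was the member called higher in *T* KO cells on day 3, at 3.19 from 217 fragments against 1.31 in WT cells (log2 ratio 1.28), beside 1.62 in *Eomes* KO and 1.22 in dKO cells. On day 2 it had been 1.61 in *T* KO cells, 0.408 in *Eomes* KO and 0.279 in dKO cells. *Klf4*, its relative, stood at 0.859 in WT cells and at 0.754, 0.992 and 0.568 in the *Eomes* KO, the *T* KO and the dKO on day 3. Immediate early genes, which respond fast to serum, growth factors and handling, moved in the same column. The 9 of them summed to 78.6 in WT and 125 in *T* KO cells on day 3 with 3 called higher. *Atf3* stood at 15.8 and 26.4, *Jun* at 16.9 and 25.8 and *Ier2*, the most abundant, at 17.2 and 26.4, none of which was called. *Klf6* (100.4 and 135) and *Klf10* (44.3 and 60.0) were also higher in the column without being called. The part of these genes in the *Klf2* value was not tested.

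As deposited, *Zfp42* and *Tfcp2l1* stayed within the threshold in all 6 comparisons, but with columns scaled to the same sum *Zfp42* passed it in the *Eomes* KO on day 3 (1.012) and *Tfcp2l1* in the dKO on day 2 (-1.16). *Zfp42* stood at 19.9 in WT cells and 21.1, 24.9 and 24.7 in the *Eomes* KO, the *T* KO and the dKO on day 2, and at 12.0 and 20.8, 15.2 and 17.8 on day 3. The largest of its ratios was 0.73 in the *Eomes* KO on day 3. On day 2 its ratios in *Eomes* KO and dKO cells, 0.09 and 0.32, turned negative when columns were scaled to the same sum. *Tfcp2l1* stood at 1.89 in WT cells and 1.33, 2.37 and 1.11 on day 2, and at 2.56 and 2.43, 3.37 and 2.44 on day 3. *Esrrb* on day 3 was 1.45 in WT cells and 2.70, 1.54 and 1.60 in the 3 lines, and its *Eomes* KO ratio of 0.84 became 1.13 under that scaling.

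**Figure D4:**
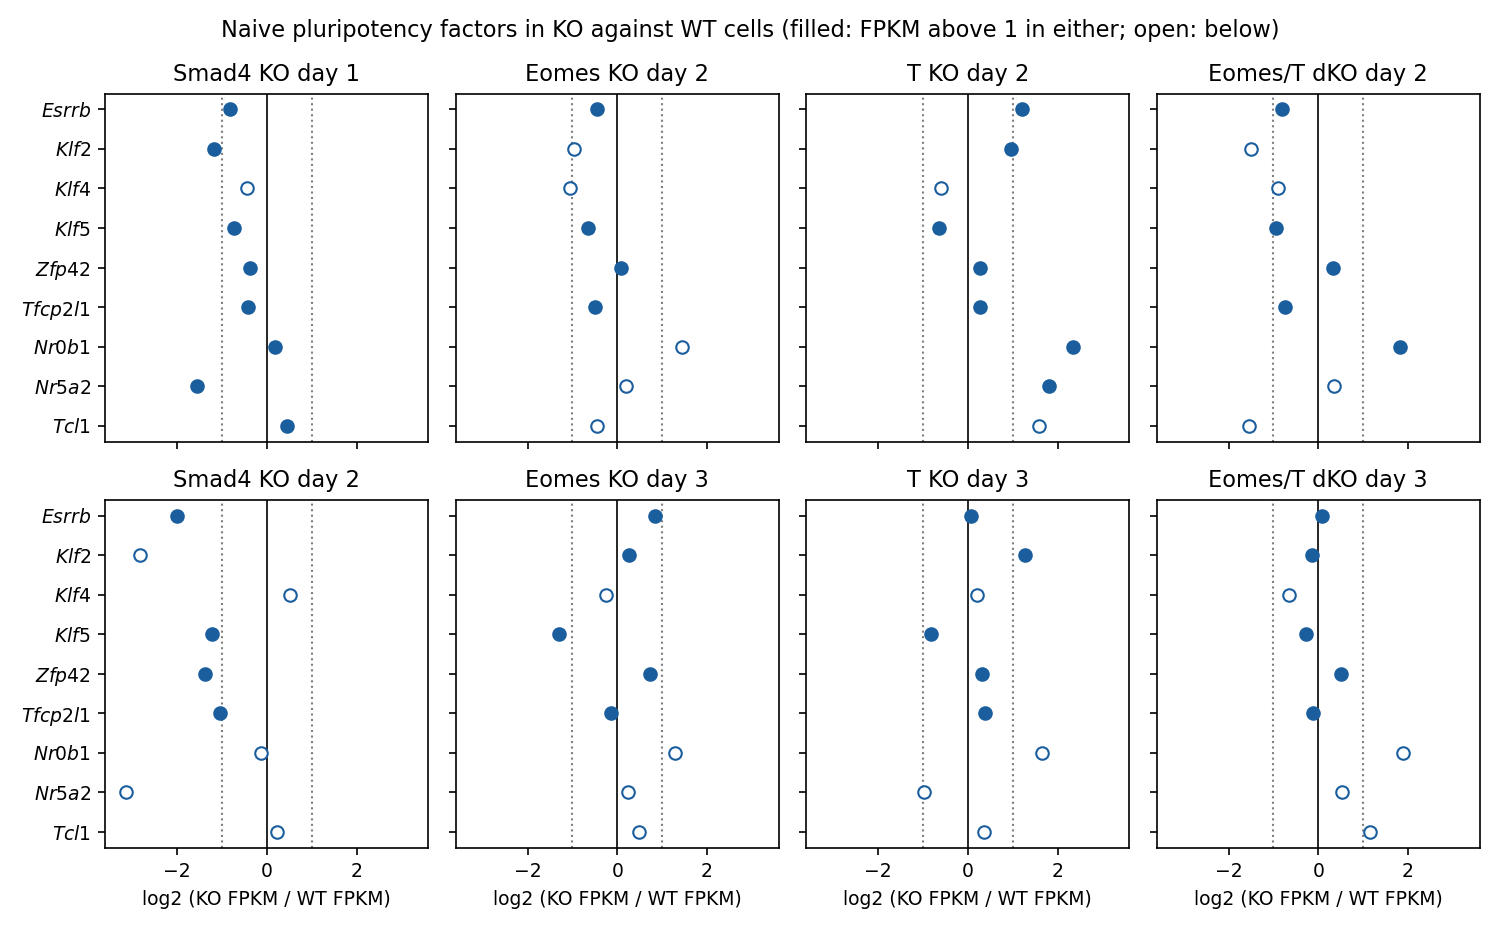
Log2 ratio of KO to WT FPKM of the 9 genes in the 8 KO comparisons, 1 panel each, filled where FPKM was above 1 in either column and open where it was not, with dotted lines at -1 and 1. Points lie mostly left of 0 in the *Smad4* KO on day 2 (median -1.22), *Klf5* lies left of 0 in all panels and *Nr0b1* right of 1 in the 6 panels of the T-box KO lines, which share WT columns on each day.

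The other lists are given in the order *Eomes* KO, then *T* KO, then dKO. Of the 9 other naive-state genes 3, 3 and 2 were called higher on day 2 and 2, 1 and 1 on day 3, with 2 called lower in the *Eomes* KO on day 3, and *Dppa5a*, at 277 in WT cells on day 2, stood at 814, 238 and 970. Of the 7 general pluripotency factors 1, 1 and 0 were called higher on day 2 and 0, 1 and 1 on day 3, with *Sox2* at 21.5 in WT cells on day 2 and 51.6, 55.2 and 42.1. Of the 9 formative and primed genes 2, 2 and 1 were called higher and 1, 1 and 2 lower on day 2, and 1, 0 and 0 higher and 4, 1 and 2 lower on day 3. Of the 7 LIF and Stat3 pathway genes 0, 1 and 0 were called higher on day 2, and on day 3 1 was higher in the *Eomes* KO (*Lifr*, 14.6 with 5.25 in WT cells) and 1 lower in the dKO. Of the 7 exit genes none was called on day 2, and 1, 0 and 2 were lower on day 3, with *Etv5* at 18.1 in WT cells and 7.43, 16.5 and 9.02. Of the 4 neural progenitor genes 2, 1 and 2 were called higher on day 2 and 1, 0 and 2 on day 3. On day 2 *Sox1* stood at 0.202 in WT cells and 7.17, 4.01 and 5.17, and *Pax6* at 0.101 and 4.54, 0.784 and 4.23. The 7 nascent mesoderm genes summed to 446 in WT cells on day 3 and to 9.08, 32.6 and 23.0. Of the 9 immediate early genes 7, 6 and 7 were called lower on day 2. Of the 6 trophoblast genes 1 was called higher and 1 lower in each line on day 2, *Cdx2* (0.617 in WT cells and 3.65, 3.76 and 3.66) and *Ascl2* (2.65 and 0.964, 0.480 and 0.581). On day 3 *Cdx2* stood at 7.30 in WT cells and at 0.439, 0.498 and 1.96, and the list summed to 16.4 and to 11.5, 20.0 and 10.1. The 5 germ cell precursor genes summed to 76.9 in WT cells on day 2 and to 35.8, 48.4 and 42.3. Of these genes 1 was called lower in each line on day 2. On day 3 they summed to 95.8 and to 51.0, 64.6 and 56.9, with 2, 1 and 1 called lower. Of the 6 primitive endoderm genes 1 was called lower in each line on day 3, *Pdgfra* (1.80 in WT cells and 0.610, 0.249 and 0.443). The part of these lists in the members' values was not tested. Feeder fibroblast genes summed to at most 5.42 in these columns, genes of the 2-cell-like state to at most 0.326 and endothelial genes to at most 0.823.

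The profiles of the members over the 14 conditions were compared with each other and with all genes, as Pearson's r of log2(FPKM + 1). These are descriptions, since 14 conditions of a few cell lines and stages are not independent samples and the ES value of the members lies far above the others. Among the 36 pairs of members r ran from 0.692 (*Klf4* and *Klf5*) to 0.960 (*Klf2* and *Tfcp2l1*) with a median of 0.868. Without the ES column it ran from -0.271 (*Klf4* and *Nr0b1*) to 0.956 (*Klf2* and *Tfcp2l1*) with a median of 0.579. *Klf2* and *Tfcp2l1* thus kept their likeness among the 13 differentiated conditions. Without the ES column *Klf4* had r of 0.608 with *Klf2* and 0.603 with *Tfcp2l1*, and between -0.271 and 0.156 with the other members. In all 13 of these conditions *Klf4* was below FPKM 1 (0.205 to 0.992), so its r values rest on a narrow range near the floor.

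Among 9284 genes with FPKM of at least 5 in any condition, those most like the mean profile of the members, members left out, were *Lgals9* (r 0.974), *Phf11d* (0.972), *Cdyl2* (0.970), *Lrrc2* (0.966) and *Cd38* (0.964). *Lgals9* stood at 17.7 at the ES stage and 1.42, 0.252 and 1.31 on days 1, 2 and 3. The single gene most like each member was *1700061G19Rik* for *Esrrb* (0.955) and *Nr0b1* (0.983), *Inhbb* for *Klf4* (0.978), *Mylpf* for *Klf5* (0.920), *Mymx* for *Zfp42* (0.954), *Mreg* for *Nr5a2* (0.966) and *Lrrc34* for *Tcl1* (0.977), while *Klf2* and *Tfcp2l1* had each other (0.960). Without the ES column these values ran from 0.461 for *Inhbb* and *Klf4* to 0.956 for *Klf2* and *Tfcp2l1*. Spearman's rho of the same pairs was lower for some, at 0.604 for *Inhbb* and *Klf4* and 0.733 for *Cdyl2* and the mean profile.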

How the data were processed

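RNA-seq was made from total RNA with strand-specific libraries. The submitters' processing notes name FastQC, cutadapt 2.9, HISAT2 2.1.0, SAMtools 1.9 and Cuffdiff 2.2.1, and reads were mapped to mm10. The deposited values are FPKM, which the authors computed in Cuffdiff, correcting for bias and for reads with several matches but not for effective length. Columns are normalised within each of the 9 tables, and reads shared between near-identical genes are divided by estimate. From these, ratios, counts of calls, list medians (pseudocount 0.1) and Pearson's r (pseudocount 1) were computed with Python 3.11.15, pandas 2.3.3, numpy 2.4.6 and scipy 1.17.1. The functions were tested on simulated data. WT columns of the *Eomes*, *T* and dKO tables were constant multiples (0.989 to 1.04) of those of the time course. The members and lists were chosen with earlier results of these data known. All 9 members are described. Of each other list at most 3 genes are named, those with the highest FPKM in any of the 14 conditions, with others marked as chosen afterwards or named as markers listed at 0, and 1 gene not reported here, and of genes with a like profile the top 5 for the mean profile and the top 1 for each member. Alternatives were pseudocounts, other FPKM minimums, scaling to the same sum (TPM) or to the median, the WT column of the time course, and for likeness Spearman's rho, a pseudocount of 0.1 and, chosen after seeing the data, leaving out the ES column.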

Additional observations from a re-analysis of the deposited data

Results flagged for a closer look

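*Tcl1* moved in opposite directions on the 2 days in dKO cells. On day 2 it stood at 0.278 in the WT column and 0.0958 in dKO cells, a log2 ratio of -1.54, from about 4 fragments in the KO library (95% exact Poisson interval 1.09 to 10.2). On day 3 it stood at 0.266 and 0.587, a log2 ratio of 1.14, from about 20 fragments (12.2 to 30.9). The difference between the days was not tested, and all 4 values are below FPKM 1.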

How the results depend on the processing

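With a pseudocount of 0.1, with columns scaled to the median ratio, or with the WT column of the time course, every count and median of the members stayed within 1.5 times its value or within 0.34 (log2) of it. No member value that was called changed sign under these alternatives, and of the medians that of the dKO on day 3 did, from 0.09 to -0.017 when scaled to the same sum. With a pseudocount of 1, medians were nearer to 0 by construction, at -2.78 (ES to day 1), -0.85 (day 1 to day 2), -3.57 (ES to day 2), -3.6 (ES to day 3), -0.59 (*Smad4* KO day 2), 0.51 (*T* KO day 2) and -0.27 (dKO day 2). It left 2 members called lower in the *Smad4* KO on day 2 and 0 in the *Smad4* KO on day 1, and 0 called higher in the *T* KO on days 2 and 3, in the dKO on day 2 and between the WT lines on day 1. A minimum of FPKM 5, which examines fewer genes, left 3 called lower from day 1 to day 2 and otherwise the same numbers as that pseudocount: 2 and 0 lower in the *Smad4* KO, and 0 higher in the other 4 comparisons. With no minimum, 1 member was higher and 1 lower in the *Eomes* KO on day 2, 1 higher on day 3, 2 higher in the *T* KO on day 3, 2 lower in the dKO on day 2, 2 higher on day 3, and 1 lower between the WT lines on day 2. Scaled to the same sum (TPM), 2 members were higher in the *Eomes* KO on day 3 and 3 lower in the dKO on day 2, with a median of -1.22. In that comparison the median of all genes moved from -0.01 to -0.42, since the dKO column summed to 608585 and the WT column to 458639. This scaling moved the share of calls that were higher from 44.5 to 26.2% (*Eomes* KO day 2), 45.0 to 70.3% (*Eomes* KO day 3), 36.5 to 48.3% (*T* KO day 2), 43.6 to 11.8% (dKO day 2) and 60.6 to 49.2% (WT lines day 1). It turned the sign of 9 member ratios, none of them called. Of 14 likeness values 9 moved with Spearman's rho and 7 without the ES column. No paired analysis was possible because each condition has a single column and the columns carry no replicate numbers, and for the same reason no replicate could be left out. Depth limits the members below FPKM 1, which rest on as few as 4 fragments.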
